A study of Mus musculus with 6 samples.

Results

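Open chromatin was described at 9 mouse genes of purinergic receptors, the receptors for extracellular nucleotides: P2rx1, P2rx4, P2rx7, P2ry1, P2ry2, P2ry6, P2ry12, P2ry13 and P2ry14. The members are 9 of 21887 protein-coding genes of the RefSeq table for GRCm38, and were chosen by name. Each locus is the gene body with 10 kb on each side, and every peak of a library that overlapped it by at least 1 bp was counted. The samples and the design text give the assay as ATAC-seq, although the title of the series speaks of histone modifications. ATAC-seq reads out where the Tn5 transposase can reach DNA in chromatin. It was run on blood monocytes of mice that had all received diphtheria toxin. The DTR group holds 3 libraries of PF4cre-iDTR mice, in which the promoter of the platelet chemokine gene Pf4 drives Cre and so the toxin receptor, and the WT group holds 3 libraries of wild-type mice. The mice of the DTR group are labelled thrombocytopenic, and those of the WT group control. The labels give no strain, age or sex, and leave unsaid if each library is 1 animal or a pool. Therefore p-values measure only the spread between these libraries.

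P2X receptors are ion channels that open when ATP binds, and P2Y receptors are G protein-coupled receptors for ATP, ADP, UTP, UDP or UDP-glucose. Activated platelets release ATP and ADP, and dying cells release ATP and UTP, so these receptors let monocytes sense clotting and tissue damage. P2rx1, P2ry1 and P2ry12 are best known from platelets, and P2rx7 from the release of interleukin-1 by monocytes and macrophages.

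The deposited lists held 81567 to 84029 peaks in the DTR libraries and 77867 to 80475 in the WT libraries, and no read counts, so depth is unknown. On the 21 chromosomes used, the DTR lists covered 49.4 ± 1.13 Mb and the WT lists 45.9 ± 1.95 Mb (SD, n = 3), 7.55% more in DTR. WT library 2 covered the least, 43.8 Mb. Peaks at transcription starts in all 6 libraries were found for 6 of 6 monocyte markers with a RefSeq start window. Of all 27025 genes with such a window, 42.8% had a peak of this kind. Such peaks were found at 1 of 6 megakaryocyte and platelet markers (Pf4), 2 of 5 neutrophil markers and 1 of 2 tissue macrophage markers (Mertk). None was found at the markers of mast cells and basophils (0 of 4), erythroid cells (0 of 3), T and NK cells (0 of 4) or B cells (0 of 2). Gp1ba, Gp1bb, Gp9 and Gp6, which encode platelet glycoproteins, had no peak at their starts in any library. In bulk material, a change in the mix of cells and a change within monocytes cannot be told apart.

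The starts of the receptor genes differed in base composition and in the strength of the peak over them. RefSeq (GRCm38.p6) gave 13 start windows for 8 members and none for P2ry6. The 250 bases before the first listed start are shown for 6 genes, which span the strongest and the weakest start peaks; the P2ry2 and P2ry12 windows are also those whose groups did not overlap. Capitals mark matches, on either strand, to TGANTCA (AP-1), TTGCNNAA (C/EBP) or CCGCCC (GC box), and no match overlaps a match of another motif. Each window is written 5′ to 3′ along the gene.
P2ry1 (chr3:61002535-61002784, plus strand): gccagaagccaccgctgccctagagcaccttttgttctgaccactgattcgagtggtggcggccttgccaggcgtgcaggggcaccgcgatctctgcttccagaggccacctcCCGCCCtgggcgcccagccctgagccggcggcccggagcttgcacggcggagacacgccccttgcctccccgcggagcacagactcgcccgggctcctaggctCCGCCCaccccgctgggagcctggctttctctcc
P2ry2 (chr7:101012054-101012303, minus strand): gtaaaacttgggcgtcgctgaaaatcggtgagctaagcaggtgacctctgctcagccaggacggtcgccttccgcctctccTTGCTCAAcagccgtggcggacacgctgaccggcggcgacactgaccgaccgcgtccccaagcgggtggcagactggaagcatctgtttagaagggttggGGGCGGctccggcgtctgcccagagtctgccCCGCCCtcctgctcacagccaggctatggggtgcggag
P2rx7 (chr5:122643677-122643926, plus strand): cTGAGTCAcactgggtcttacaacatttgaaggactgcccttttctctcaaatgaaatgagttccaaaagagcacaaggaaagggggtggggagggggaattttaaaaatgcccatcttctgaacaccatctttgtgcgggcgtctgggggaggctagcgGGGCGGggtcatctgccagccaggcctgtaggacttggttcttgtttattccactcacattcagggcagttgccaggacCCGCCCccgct
P2ry14 (chr3:59153493-59153742, minus strand): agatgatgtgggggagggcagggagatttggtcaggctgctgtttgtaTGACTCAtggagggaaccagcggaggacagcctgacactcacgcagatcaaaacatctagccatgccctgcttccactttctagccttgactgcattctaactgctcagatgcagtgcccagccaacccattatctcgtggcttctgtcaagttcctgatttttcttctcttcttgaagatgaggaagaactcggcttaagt
P2ry12 (chr3:59262986-59263235, minus strand): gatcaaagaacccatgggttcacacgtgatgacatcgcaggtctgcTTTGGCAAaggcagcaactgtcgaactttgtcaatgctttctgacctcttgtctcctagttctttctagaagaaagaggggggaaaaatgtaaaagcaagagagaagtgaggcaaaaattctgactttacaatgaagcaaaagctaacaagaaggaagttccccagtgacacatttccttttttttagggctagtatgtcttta
P2ry13 (chr3:59210883-59211132, minus strand): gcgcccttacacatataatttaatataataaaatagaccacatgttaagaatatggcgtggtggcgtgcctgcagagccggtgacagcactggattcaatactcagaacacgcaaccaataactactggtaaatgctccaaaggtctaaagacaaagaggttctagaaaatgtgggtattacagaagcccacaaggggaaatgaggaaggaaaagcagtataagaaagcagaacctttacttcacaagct
The P2ry1 window was 70.8% G and C with 20 CpG dinucleotides and held 2 GC boxes, and that of P2ry2 was 65.2% with 21 CpG, 2 GC boxes and a C/EBP match. The windows of P2ry12 and P2ry13 were both 41.6% G and C, with 3 and 5 CpG. Those of P2ry14 and P2rx7 were 50% and 53.6%, with 4 and 6 CpG. The first windows of P2rx1 and P2rx4, not shown, were 61.2% and 57.2%, with 6 and 13 CpG. P2ry12 held 1 C/EBP match, beginning 204 bases before the start. The first windows of P2ry13, P2rx1 and P2rx4 held none of the motifs. AP-1 letters began 249 bases before the P2rx7 start and 202 bases before the P2ry14 start. Over all 32851 windows the median was 52.4% G and C and 6 CpG. GC boxes were in 32.7% of them, AP-1 letters in 6.75% and C/EBP letters in 9.56%. No member window held GAGGAAGT (PU.1), TGTGGTT (RUNX) or the IRF motif searched, found in 2.44%, 4.4% and 2.98% of all windows. A match here is a match of letters only.

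At the first listed start, all 8 genes had a peak in every library, beside 41.1% of all 32851 start windows. The deposited fold enrichment, the authors' ratio of a peak over the caller's background, was highest at P2ry14, the UDP-glucose receptor gene, with 11.8, 10.1 and 10.2 in the DTR and 10.3, 11.8 and 11.5 in the WT libraries. At P2ry2, a receptor for ATP and UTP, it was 9.66, 9.57 and 9.58 against 9.12, 9.08 and 9.56. Each DTR value there was above each WT value, although WT library 3 was close to the DTR libraries. The P2ry1 peak, at the gene of an ADP receptor, had 9.42, 9.28 and 9.26 against 9.48, 9.0 and 9.15. At P2rx4 and P2rx7, both ATP-gated channels, the DTR means were 8.83 and 8.58 and the WT means 8.72 and 8.12, and the groups overlapped. P2rx1, a fast ATP-gated channel, had lower values, 4.99, 5.03 and 4.83 against 4.83, 5.63 and 6.14. The weakest start peaks were those of the ADP receptor genes P2ry12 and P2ry13. P2ry12 had 3.86, 3.57 and 3.60 in DTR and 3.99, 4.08 and 3.89 in WT, so that each DTR value lay below each WT value. P2ry13 had 3.13, 2.95 and 3.54 against 3.08, 3.91 and 3.47, with overlap. Within its own list, the start peak stood at a median percentile of 96.0 for P2ry14, 90.0 for P2ry2 and 89.2 for P2ry1, and of 27.7 for P2ry12 and 17.7 for P2ry13. Of 8 start peaks, 1 lay wholly higher and 1 wholly lower in DTR, beside 6.19% and 5.59% of 13490 start windows with a peak in all libraries. Neither region passed in limma, with each library centred on its median. The log2 difference was 0.02 at P2ry2 (SE 0.044; limma, adjusted p = 0.870) and −0.15 at P2ry12 (SE 0.0661; limma, adjusted p = 0.477). Further starts of P2ry14 and P2rx7 were unequal: 1 P2ry14 window and the second P2rx7 window had no peak in any library. Another P2ry14 window had a peak in all DTR libraries (5.40, 5.71 and 5.63) and WT library 1 (5.67), but not in WT libraries 2 and 3. The region there had a peak in every library, narrowest in WT libraries 2 and 3 (592 and 741 bp).

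The loci differed in how much of their length was open. Peaks covered most of P2ry13 (median over libraries 15.8%), then P2ry6 (14.5%), the gene of a UDP receptor, P2rx4 (13.1%) and P2rx1 (12.8%), and the 6-library ranges of neighbours in this order overlapped. P2rx7 (9.27%) and P2ry12 (9.24%) came next and overlapped with each other. P2ry1 (8.0%) and P2ry2 (7.67%) overlapped too, and the highest P2ry1 value (8.4%) was above the lowest P2rx7 value (8.21%). P2ry14 was lowest with 6.67%, its range of 6.46% to 6.98% lying below all others. P2ry14 thus had the highest start peak and the smallest open share of its locus. Loci were not all separate: P2ry12, P2ry13 and P2ry14 lie inside the body of Med12l, and 6 of 63 merged regions fell in the loci of both P2ry12 and P2ry13 or of both P2rx4 and P2rx7. Windows also reached into Camkk2, Camkk1, Atp2a3 and Arhgef17, so a peak in a locus need not belong to the receptor gene.

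**Figure D1:**
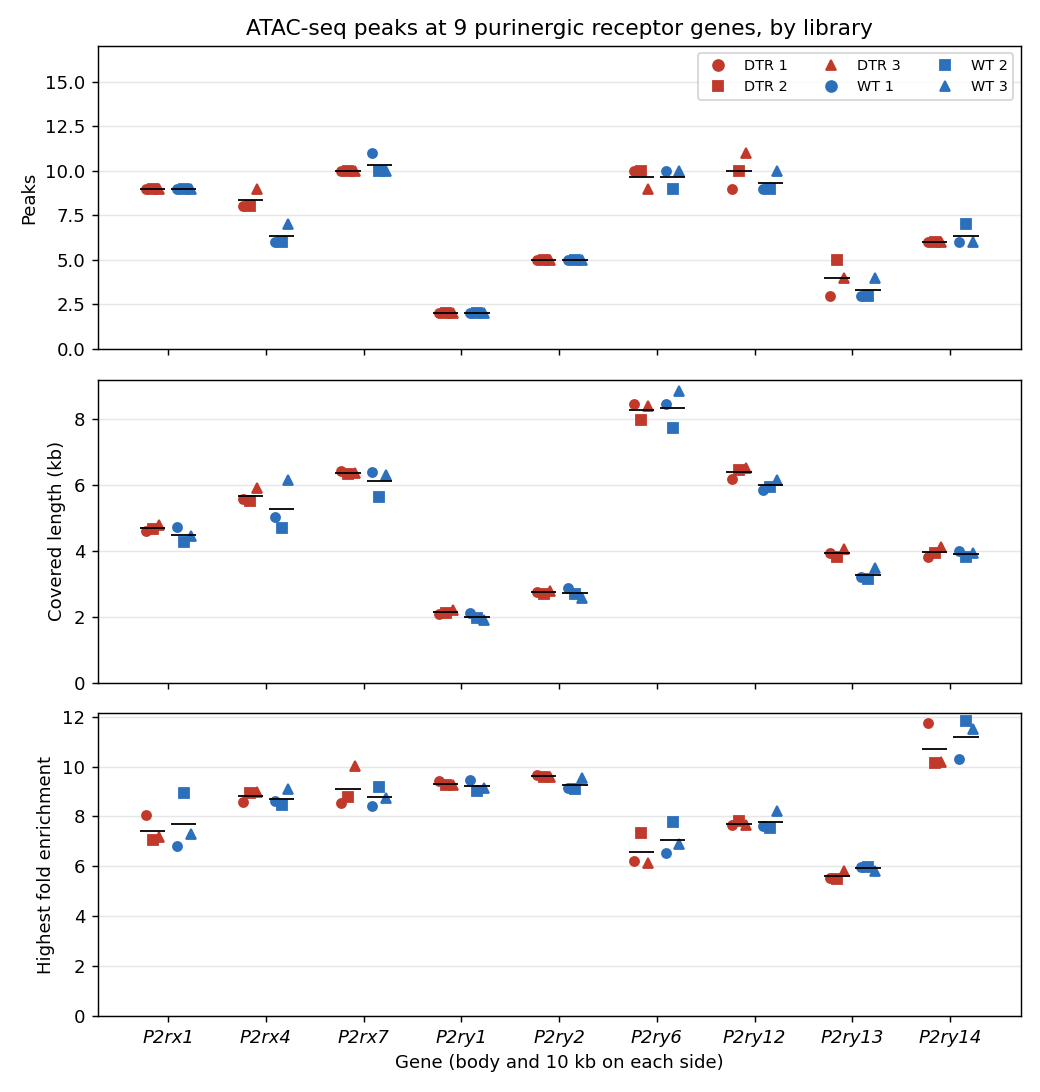
Number of peaks, covered length in kb and highest fold enrichment (linear axes) at each of 9 loci, with 1 point per library (DTR red, WT blue) and black lines at group means of 3 libraries. Groups are wholly apart for P2rx4 in number, for P2ry12 and P2ry13 in covered length, and for P2ry2 (DTR higher) and P2ry13 (DTR lower) in highest fold, where P2ry13 differs by little.

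Over the loci together, with all listed peaks, the groups overlapped in number, covered length and median fold of peaks. Peaks numbered 57, 59 and 59 in the DTR libraries and 56, 55 and 57 in the WT libraries, a difference of 2.33 (exact two-sided permutation p = 0.2), and DTR library 1 equalled WT library 3. The covered length was 40524, 39744 and 41641 bp in DTR and 39260, 37060 and 40270 bp in WT. That is 40636 ± 953 against 38863 ± 1641 bp (SD, n = 3), a difference of 4.56% with overlapping groups (exact permutation p = 0.2), beside 7.55% over the whole lists. The difference was 1773 bp with all libraries and 871 bp without WT library 2. The median fold of these peaks was 4.75 ± 0.219 in DTR and 4.96 ± 0.375 in WT (SD, n = 3; exact permutation p = 0.5). WT library 2 was the highest, with 5.39, and without it the difference went from −0.216 to −0.00044. With peaks of a −log10 q of at least 5 alone, the differences were 4.33 peaks, 2477 bp and −0.368 in median fold (exact permutation p = 0.1 for each). With 3 libraries against 3, the smallest p is 0.1, and it is reached only where the groups do not overlap.

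Among the P2X genes, P2rx4 had more peaks in each DTR library. P2rx4 is an ATP-gated channel of endosomes and lysosomes as well as the cell surface. It had 8, 8 and 9 peaks in the DTR and 6, 6 and 7 in the WT libraries (exact permutation p = 0.1), and the difference of 2 became 0.667 in the gene body alone. All DTR libraries were above all WT libraries here. No other member had such a difference in number, so the count was 1 of 9, beside 2.99% of 16831 genes with a peak (0.345% in the other direction, with 0 of 9). Covered length at P2rx4 was 5572, 5506 and 5892 bp against 5015, 4682 and 6134 bp, where WT library 3 was the highest of all.

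A pair of regions was found more often in DTR libraries at P2rx4. One lay at −2.85 kb from the start (chromosome 5, 122704603 to 122704780 in the coordinates of the lists) and had a peak in all DTR libraries, 161, 164 and 177 bp wide, and in no WT library. Its folds of 1.92, 2.20 and 2.08 were above only 0.689%, 1.85% and 1.46% of the peaks in their lists, while the −log10 q was 9.69, 14.5 and 14.1. The other lay 8.26 kb after the start, inside the gene (122715628 to 122715987), in all DTR libraries (355, 156 and 272 bp) and in WT library 3 (143 bp). This pair, and a region with a peak in DTR library 3 alone, made up the P2rx4 difference in peak number. The regions and that count are thus not separate observations. The region at −2.85 kb was the single DTR-only region of the 63 regions at the 9 loci, beside 0.821% of all 92712 merged regions, and 0 were WT-only, beside 0.0992%. With WT library 3 left out, 2 regions of the loci were DTR-only. The lists hold no reads for a region without a peak, so signal below the calling limit is not visible here. Another 5 regions had a peak in 1 library, beside 8.11% of all merged regions.

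P2rx7, the channel that opens at high ATP and is linked to inflammasome activation, held the region with the largest difference in fold. This region lay 18.86 kb after the first start, inside the gene (chromosome 5, 122662430 to 122663137). Its folds were 8.39, 8.59 and 10.02 in the DTR and 6.55, 6.32 and 6.57 in the WT libraries. All DTR values were above all WT values, with means of 9.0 ± 0.889 and 6.48 ± 0.141 (SD, n = 3). It was also wider in each DTR library, at 627, 692 and 680 bp against 497, 506 and 447 bp. On the log2 scale, after centring each library, the difference was 0.44 (SE 0.0819) in fold and 0.38 (SE 0.0895) in width. Neither passed the limma test over all 68681 regions shared by the 6 libraries (adjusted p = 0.204 for fold and adjusted p = 0.495 for width). The region at the P2rx7 start did not move with it (log2 difference 0.05, SE 0.0595). The next region, 25.31 kb after the start, showed the spread within a group, with folds of 7.50, 7.96 and 7.16 against 6.05, 9.20 and 6.35. Over the whole locus P2rx7 had 10, 10 and 10 peaks against 11, 10 and 10, and 6365 ± 39.1 bp against 6102 ± 423 bp (SD, n = 3), with overlap in both.

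**Figure D2:**
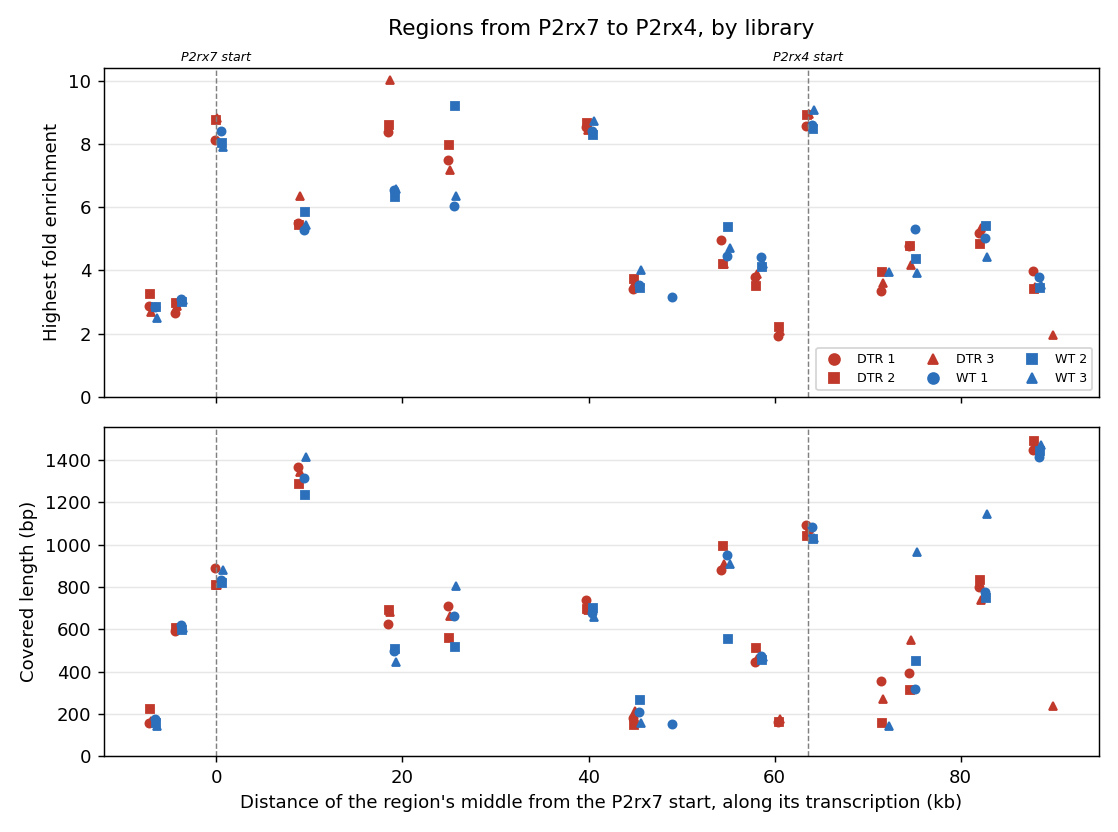
Highest fold enrichment and covered length in bp (linear axes) of each region against the distance of its middle from the P2rx7 start in kb, 1 point per library with a peak (DTR red, WT blue, shifted sideways for sight). The region 18.86 kb after the start is the only one here in which all DTR points lie above all WT points in both panels, and the region at −2.85 kb from the P2rx4 start has DTR points alone.

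P2rx1 had 9 peaks in every library, and covered 4599, 4660 and 4780 bp in DTR and 4723, 4254 and 4442 bp in WT. The region with the lowest p for width in this locus lay at −6.60 kb from the start, in the body of Atp2a3, a calcium pump gene. It spanned 179, 162 and 178 bp in DTR and 186, 213 and 237 bp in WT, narrower in each DTR library (limma, adjusted p = 0.648).

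Of the ADP receptor genes, P2ry13 had the largest relative difference in covered length. It was 3931, 3796 and 4060 bp in DTR and 3216, 3140 and 3463 bp in WT, or 20.04% more in DTR without overlap (exact permutation p = 0.1). This difference of 656 bp was 21.3 bp in the gene body alone, where 0 of the members were wholly higher in covered length. P2ry12, the receptor that clopidogrel blocks on platelets and a marker of microglia in the brain, had 6178, 6458 and 6505 bp against 5854, 5938 and 6148 bp, 6.69% more and again without overlap. The differences at P2ry12 and P2ry13 are not wholly separate observations, because the loci share some regions. They are not the same signal either. In the gene body alone, the P2ry12 difference of 400 bp was 310 bp, with overlapping groups, while that of P2ry13 was the 21.3 bp given above. The count of 2 of 9 loci wholly higher in covered length was near the 19.3% of all genes that were (0 of 9 and 0.85% in the other direction). Without WT library 1 it was 6 of 9.

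At P2ry13, most of the difference came from a wide region 5.19 kb after the P2ry13 start, outside both gene bodies (chromosome 3, 59204465 to 59206918). Its peak was 2444, 1912 and 2442 bp wide in DTR and 1780, 1866 and 1833 bp in WT. DTR libraries 1 and 3 were far wider than the rest, and DTR library 2 only slightly. The fold went the other way, with 3.98, 4.15 and 4.21 in DTR, all below the 4.41, 4.30 and 4.56 in WT. A region at −1.34 kb from the P2ry13 start (59211634 to 59212821) did likewise: it covered 1118, 1144 and 1102 bp against 1057, 1038 and 1071 bp, with folds of 5.55, 5.48 and 5.80 against 5.98, 5.96 and 5.81. The latter is the highest fold of the P2ry13 locus, the single one of 9 that was wholly lower in DTR, beside 4.6% of all genes. P2ry2 was the single one wholly higher, beside 8.21%. In limma neither P2ry13 region passed for width (adjusted p = 0.648 and 0.963) or fold (adjusted p = 0.487 and 0.566).

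**Figure D3:**
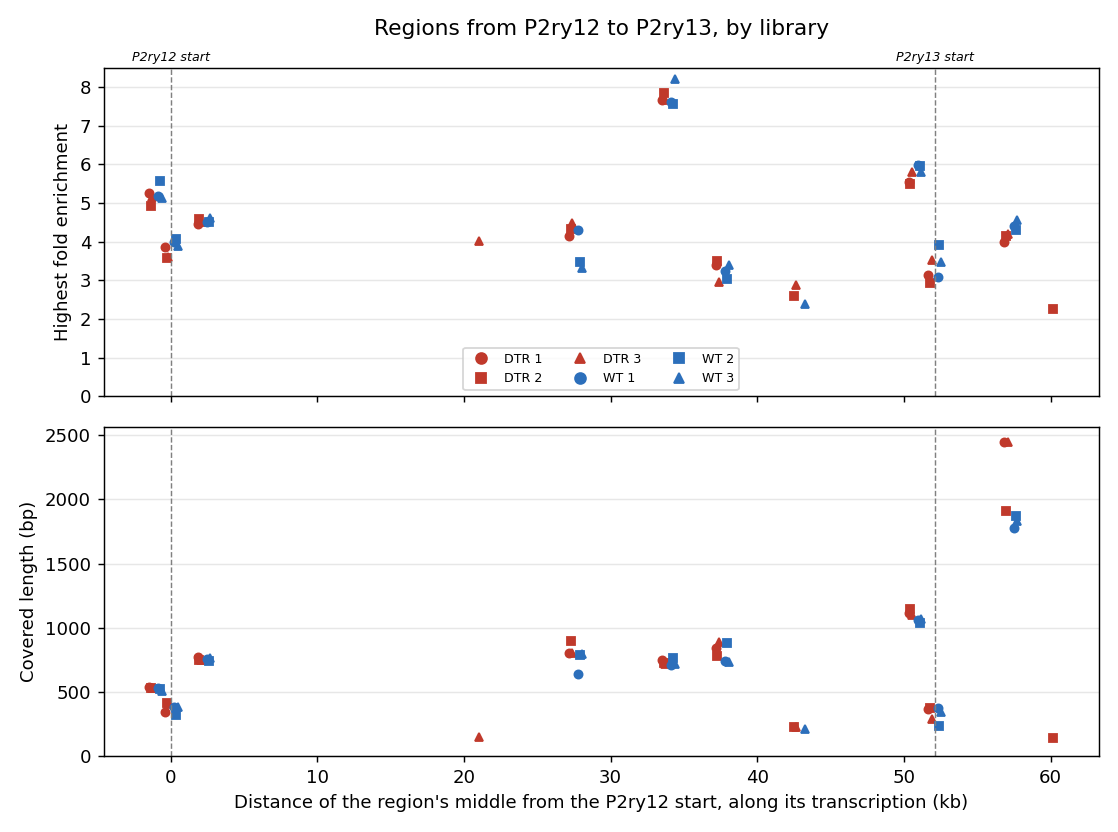
Highest fold enrichment and covered length in bp (linear axes) of each region against the distance of its middle from the P2ry12 start in kb, 1 point per library with a peak (DTR red, WT blue, shifted sideways for sight). At the region 57.29 kb along, which is 5.19 kb after the P2ry13 start, DTR points lie above WT points in length and below them in fold.

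At the other P2Y loci the groups overlapped in number and covered length. P2ry1 had the same 2 peaks in every library, 1 at the start and 1 located 14.19 kb after it, covering 2085, 2105 and 2200 bp in DTR and 2106, 1962 and 1886 bp in WT. P2ry2, through which nucleotides from dying cells attract monocytes, had 5 peaks in every library, covering 2758, 2683 and 2792 bp against 2865, 2681 and 2577 bp. P2ry14 had 6, 6 and 6 peaks against 6, 7 and 6, and covered 3953 ± 148 bp against 3902 ± 88.8 bp (SD, n = 3). P2ry6 had the longest covered length, 8443, 7955 and 8379 bp against 8444, 7724 and 8840 bp.

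A region inside P2ry6 had the next lowest p for fold (chromosome 7, 100943365 to 100944830). Its folds were 5.42, 5.83 and 5.77 in DTR and 6.52, 6.49 and 6.66 in WT, all DTR values below all WT values. Its log2 difference was −0.24 (SE 0.0576; limma, adjusted p = 0.264). The width did not go with it, at 1411, 1466 and 1444 bp against 1435, 1432 and 1430 bp.

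Across all members, 54 of 63 regions (85.7%) had a peak in every library, beside 74.1% of all regions, and their folds ran from 2.02 to 11.8. With limma, 0 of the 54 passed an adjusted p of 0.05 for fold in either direction, beside 0% of 68681 shared regions, and 0 for width, beside 0.144% wider and 0.0218% narrower in DTR. At an unadjusted p under 0.05, the fold of 1 was higher and of 3 lower (5.56% and 5.47% of all shared regions), and the width of 1 was higher and of 2 lower (2.99% and 3.49%). Folds were wholly higher in DTR at 3 and wholly lower at 6 of the 54, beside 10.4% and 5.14%. Widths were wholly higher at 7 and wholly lower at 1, beside 13% and 1.86%. The median log2 difference over the 54 was −0.03 in fold and −0.05 in width, beside −0.02 and −0.04 over all shared regions. The limma values were centred on each library's median, unlike the wholly higher and lower counts. A negative log2 width is therefore relative to its library, and such a region can still cover more bp in DTR.

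**Figure D4:**
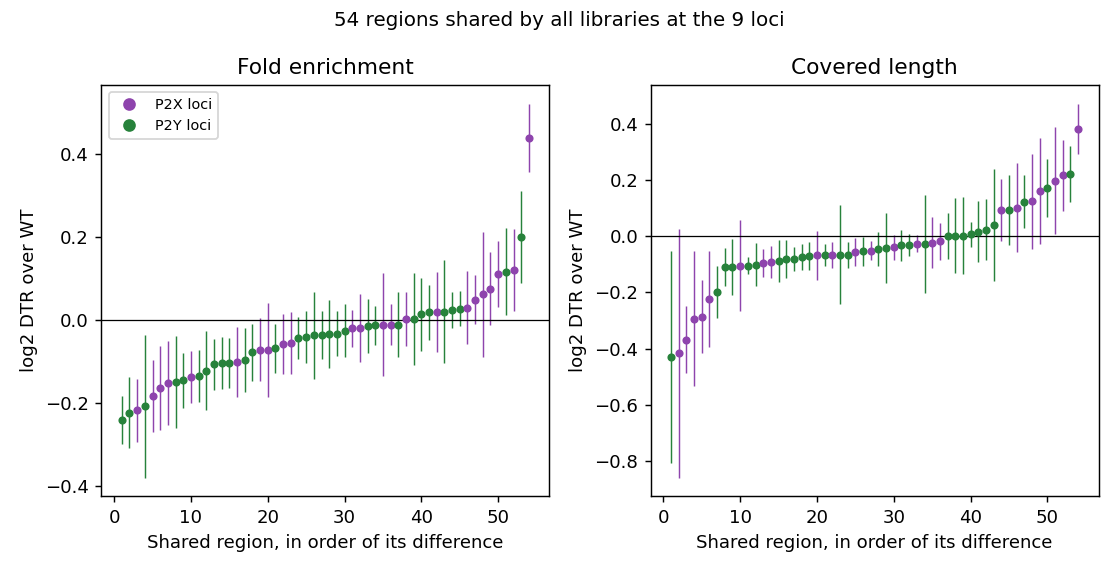
Log2 difference DTR over WT with its limma standard error for fold enrichment (left) and covered length (right) of the 54 shared regions, each panel in order of the difference (P2X loci purple, P2Y loci green). Values were centred on each library's median. The P2rx7 region is the highest point of both panels, at 0.44 and 0.38, and none passed the adjusted threshold.

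No region at the other genes of purinergic signalling passed the test. Of 44 listed genes, 43 had a peak within 10 kb in some library, and P2ry4 had none. Their loci held 286 regions, 2 of them also in the loci above, with 227 in all libraries and 0 group-only. In limma 0 of 227 passed for fold and 0 for width, with 18 (7.93%) and 15 (6.61%) at an unadjusted p under 0.05, beside 11.03% and 6.49% of all shared regions. Among the receptors, 53 of 61 regions were in all libraries; P2rx3, Adora3 and P2ry10b had the most peaks, with means of 7.50, 6.50 and 6.17 per library. Genes of nucleotide breakdown had 72 of 98 in all libraries. Entpd1 (CD39), the ectoenzyme that removes phosphates from ATP and ADP, had 18, 18 and 17 peaks against 19, 19 and 20, while its covered length of 14164 ± 227 and 13999 ± 503 bp (SD, n = 3) overlapped. Adk, adenosine kinase, had a mean of 15.3 peaks, and Nt5e (CD73), which makes adenosine from AMP, 8.33. Entpd8, named after its values were seen, had 2 peaks in each DTR and 1 in each WT library. These were the single genes of 43 wholly lower (Entpd1) and wholly higher (Entpd8) in peak number, beside 0.345% and 2.99% of all genes. Release and transport genes had 44 of 54 regions in all libraries, led by Panx1 (a channel that releases ATP, mean 8.67 peaks), Slc29a3 (7.83) and Lrrc8a (6.33), and G proteins and effectors 58 of 73, led by Gnaq (23.8) and Plcb2 (7.50). Of the 43 genes, covered length was wholly higher in DTR in 9 and wholly lower in 0, beside the 19.3% and 0.85% given above. The highest fold was wholly higher in 3 and wholly lower in 4, beside 8.21% and 4.6%. In covered length, without WT library 1 the 9 became 19, and without DTR library 2 it became 16.

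Genes of other loci with the most similar covered length and highest fold over the 6 libraries, by Euclidean distance of log2(value + 1), were Ndufaf2 for P2ry2 (distance 0.116), Eif2b5 for P2ry1 (0.149), Chpf2 for P2ry12 (0.170), Ctnnb1 for P2ry14 (0.187), Ralgds for P2rx7 (0.222), Snx1 for P2rx1 (0.232), Sesn1 for P2rx4 (0.244), Dhrs1 for P2ry13 (0.274) and Trim17 for P2ry6 (0.308). Each is the nearest of 21887 genes, as a description over 6 libraries.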

How the data were processed

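ATAC-seq libraries of 3 DTR and 3 WT samples were analysed from 1 list of broad peaks each, grouped by the sample titles. MACS2, fastp, Bowtie and Bowtie2 (2.4.4) were used, per the submitters' processing notes. The sources used here do not give parameters, any transposase shift or the genome build. The authors' lists give each peak's fold enrichment (a ratio), −log10 p-value and q-value, and a score. Coordinates are counted from 1. The RefSeq GRCm38 tables were checked against the lists: 41.1% of start windows had a peak in all libraries, against 4.12% and 4.25% after moving them by 5 and 20 kb. Overlapping or adjoining peaks of all libraries were joined into regions. Per shared region, log2 of the highest fold and of the covered length, centred on each library's median, were fitted with limma 3.58.1 (with trend; R 4.3.3) and adjusted by Benjamini-Hochberg over all shared regions. The fit was tested on simulated data with a log2 change in fold of 1. That is larger than any difference at the member regions (at most 0.44), so the test does not speak to changes of their size. Locus values were compared by exact two-sided permutation. Fold scales may differ with depth, which is unknown. Genes were named as members, as pathway genes with the most peaks (up to 3 per role), or as nearest by pattern. The members and lists were chosen with earlier results of these data known. Alternatives changed the peaks kept, list length, windows, overlap, joining, centring, trend, fold per region, libraries and pairing.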

Additional observations from a re-analysis of the deposited data

How the results depend on the processing

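Of 792 values over 17 alternative settings, 702 kept their call. Some of these values follow single regions that were picked by their values in the main setting. Counts had to stay within 1.5 times, and values without a test within the spread between libraries. Tested differences had to keep their sign and their side of the p threshold. For differences over the loci, the exact p cannot go below 0.1, or 0.25 under the replicate block. Their call could therefore change only with the sign, and does not speak to their size. The difference in median fold kept its call while going from −0.216 to −0.000435 without WT library 2. The sign changed in 17 values of 10 results, 13 of them within the spread between libraries, all differences at a single locus or region. In every setting run, 0 member regions passed limma for fold or width, and the differences over the loci kept their sign. The cause was not tested where the setting does not give it. Members wholly higher in peak number were 0 with windows of 0 kb and 2 with 25 kb, in covered length 0 and 4, and wholly lower in fold 0 and 0. DTR-only member regions were 0 with windows of 0 kb, since the region lies before P2rx4. It kept its peak in all 3 DTR libraries at a −log10 q of at least 5 and with lists of equal length. Pathway genes wholly higher in number were 0 with 25 kb, and wholly lower 2 with equal length. With 0 kb they were 5 and 1 (higher and lower covered length) and 6 and 2 (fold), and with 25 kb 2 were lower in fold. Pathway regions that were DTR-only and WT-only were 2 and 1 at that q, and 0 and 1 with equal length. Leaving out 1 library loosens these definitions. Members wholly higher in DTR then numbered 1 to 1 in peak number, 2 to 6 in covered length (6 without WT library 1) and 1 to 2 in fold (2 without WT library 1 or 3). Members wholly lower numbered 0 to 1 in covered length (1 without WT library 2) and 1 to 2 in fold (2 without DTR library 1 or 2). DTR-only member regions numbered 1 to 2 (2 without WT library 3). Pathway genes wholly higher and lower numbered 1 to 3 and 1 to 2 in peak number, 10 to 19 and 0 to 2 in covered length, and 3 to 7 and 4 to 11 in fold. The highest of these were without WT library 1 or 3 (3 in number, 2 in length), DTR library 1 (2 in number), WT library 1 (19 in length, 11 in fold), and DTR library 3 or WT library 3 (7 in fold). Pathway regions numbered 0 to 4 DTR-only (4 without WT library 1) and 0 to 1 WT-only (1 without DTR library 1 or 2). In limma, 0 to 1 pathway regions passed as wider (1 without WT library 1) and 0 to 1 as narrower (1 without DTR library 3 or WT library 3). The P2ry6 region's log2 width difference went from −0.07 to 0.0079 without centring. Correlations in fold between DTR and WT libraries of equal number were 0.00254, 0.0737 and −0.0317. In width they were −0.0022, 0.0476 and −0.018. Pairs of unequal number ran from −0.0906 to 0.0905 in fold. Low correlations do not exclude pairing, so it is unknown if an equal number marks a pair. Under a replicate block, member loci differed by 2.33 peaks (p = 0.25 by exact sign flips, which cannot give less) and 0 member or pathway regions passed.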
